A study of Mus musculus with 14 samples.

Results

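Adult muscle fibres range from slow oxidative to fast glycolytic, and a small set of transcription factors and cofactors is known to hold each fibre to its type. The genes described here are 9 of these regulators, *Eya1*, *Tbx15*, *Sox6*, *Prox1*, *Vgll2*, *Mef2c*, *Mef2d*, *Hdac4* and *Dach2*, taken by symbol from a deposited table of 52550 mouse genes, of which 20938 had at least 1 count. The list was chosen by symbol with the counts per mouse over the 4 groups and earlier results of these data in view, and no threshold on the values is recorded. Levels and fold changes are therefore given as a description of these genes, with p-values adjusted over all tested genes, and the number of regulators that passed is not independent evidence for any pattern.

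The study used triceps of male mice. FLExDUX4 mice, a model of facioscapulohumeral muscular dystrophy, carry a conditional human *DUX4* transgene; the labels name no Cre driver, and *DUX4* itself was not analysed here. They were set against wild-type (WT) littermates, and in each genotype some mice had voluntary wheel running for 6 weeks while the others had none. This gave 4 FLExDUX4 running, 4 WT running, 3 FLExDUX4 control and 3 WT control mice, with 1 library of sequenced RNA 3′ ends from each. Age, running distance and the health of single mice are not given in the sources used here. In whole muscle, fewer fibres of a type and less RNA per fibre cannot be told apart.

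The regulators work in a few pathways. EYA coactivators and DACH corepressors are recruited by DNA-binding partners. In mouse muscle EYA1 promotes genes of fast glycolytic fibres, and DACH2 takes part in the control of myogenin and of acetylcholine receptor genes by nerve activity. VGLL2 is a cofactor of the DNA-binding TEAD factors, and mice that lack it have a shifted fibre type distribution. SOX6 represses slow fibre genes, TBX15 is needed for glycolytic fibres, and PROX1 is needed for the slow fibre programme. MEF2 factors activate contractile and metabolic genes in response to calcium signals, and class II histone deacetylases such as HDAC4 hold them back.

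The DNA around the starts of *Vgll2* and *Dach2* is shown because these were the only regulators called by edgeR in a comparison or slope over all 14 mice. A start of *Sox6*, which had lower values in runners, is shown beside them because it held the only MEF2 match found. Sequences are RefSeq promoter windows on build GRCm38.p6, 300 bases long and mostly upstream of an annotated start, written 5′ to 3′ on the gene's strand. Capitals mark matches to any of 4 short motifs searched on both strands. They are CATTCC, the MCAT site of TEAD factors, and TCAGGTT, the MEF3 site. The others are the MEF2 site of CTA and TAG with any 4 bases between them, and CANNTG, the general E-box of bHLH factors.
*Vgll2*, chr10:52022252-52022551, plus strand: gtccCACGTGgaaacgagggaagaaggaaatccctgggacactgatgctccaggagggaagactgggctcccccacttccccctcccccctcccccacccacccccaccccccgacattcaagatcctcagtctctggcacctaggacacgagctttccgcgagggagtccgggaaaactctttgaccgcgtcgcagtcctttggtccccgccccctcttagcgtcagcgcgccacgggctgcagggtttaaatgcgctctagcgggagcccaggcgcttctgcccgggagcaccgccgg
*Dach2* start 1, chrX:113297260-113297559, plus strand: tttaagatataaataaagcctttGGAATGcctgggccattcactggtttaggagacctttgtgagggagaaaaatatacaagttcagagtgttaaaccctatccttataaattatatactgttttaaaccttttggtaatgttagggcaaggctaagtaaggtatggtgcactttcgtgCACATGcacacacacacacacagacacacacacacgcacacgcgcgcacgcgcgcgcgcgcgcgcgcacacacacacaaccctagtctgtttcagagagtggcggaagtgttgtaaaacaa
*Dach2* start 2, chrX:113298006-113298305, plus strand: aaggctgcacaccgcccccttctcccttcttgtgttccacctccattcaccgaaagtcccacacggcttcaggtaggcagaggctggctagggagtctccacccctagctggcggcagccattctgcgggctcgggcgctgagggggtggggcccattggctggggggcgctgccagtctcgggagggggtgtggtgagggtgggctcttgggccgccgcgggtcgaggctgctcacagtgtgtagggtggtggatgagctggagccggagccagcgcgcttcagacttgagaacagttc
*Sox6* start 5, chr7:116030998-116031297, minus strand: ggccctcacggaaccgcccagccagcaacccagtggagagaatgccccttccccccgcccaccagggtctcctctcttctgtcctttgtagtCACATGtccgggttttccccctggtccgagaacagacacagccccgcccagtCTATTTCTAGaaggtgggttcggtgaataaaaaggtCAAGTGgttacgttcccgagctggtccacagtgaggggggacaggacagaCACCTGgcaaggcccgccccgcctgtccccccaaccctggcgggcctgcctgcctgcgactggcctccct

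The *Vgll2* window held only the E-box CACGTG, beginning at position -246 from the start. The window of *Dach2* start 1 held an MCAT match on the minus strand, read as GGAATG at -227, and the E-box CACATG at -71, and that of start 2 held none of the 4 motifs. The *Sox6* window held CTATTTCTAG at -106 and 3 E-boxes. Of 32851 promoter windows of this length, 72.31% held an E-box, 14.66% an MCAT match, 4.07% a MEF3 match and 3.686% a MEF2 match. A match is a description of the letters and not evidence of binding. The table used here holds 16 windows for 7 of the regulators, and *Eya1* and *Tbx15* are named only.

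The muscle itself sets the scale for these genes. Triceps is a mainly fast muscle, and *Myh4*, the myosin heavy chain of type 2B fibres, made up 71.0 to 96.5% of the summed counts of the 4 adult myosin genes in FLExDUX4 running mice and 70.9 to 94.9% in WT running mice. Its share was 93.1 to 95.8% in FLExDUX4 control mice and 98.3 to 98.9% in WT control mice. The myosin ratio used below is the log2 of *Myh7* (slow), *Myh2* (type 2A) and *Myh1* (type 2X) counts over *Myh4* counts. It averaged -2.84 ± 1.47 in FLExDUX4 running mice, -2.54 ± 1.35 in WT running mice, -4.17 ± 0.381 in FLExDUX4 control mice and -6.18 ± 0.268 in WT control mice (SD, n = 4, 4, 3 and 3). The runners thus differed widely among themselves, while the WT control mice lay close together. Libraries held 3269357 to 6995811 gene counts, and no pair of replicates was alike within sampling noise.

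Running came with more *Dach2* in WT triceps. *Dach2* (ENSMUSG00000025592, chrX:113297510-113836386, plus strand, build GRCm38) had 12.1, 7.28, 4.06 and 8.49 CPM (counts scaled to the library total) in WT running mice, against 0.841, 1.73 and 2.41 CPM in WT control mice. Every WT runner lay above every WT control mouse, and the WT control values rested on 4, 8 and 8 counts. The level was 4.90-fold higher in WT runners (95% interval 2.35 to 10.2), a log2 fold change of 2.29 ± 0.54 (SE) with an adjusted p of 0.0430 in edgeR's quasi-likelihood test with Benjamini-Hochberg adjustment. That call was fragile. It was lost in 10 of the 14 fits that each left out 1 mouse, where the log2 fold change ran from 1.95 to 2.61 and the adjusted p from 0.0106 to 0.282; the 4 that kept it left out FLExDUX4 running 2, FLExDUX4 running 4, WT running 3 or FLExDUX4 control 3. In the authors' deposited table, which gives WT control over WT running, the *Dach2* log2 fold change was -0.911. No adjusted p is given for it there, so *Dach2* was not called. That size is smaller than the 2.30 of DESeq2 on the same counts. *Dach2* was the only 1 of 9 regulators called by edgeR in this comparison, in which 0.496% of all 11088 tested genes were called, 0.397% as higher.

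In FLExDUX4 mice *Dach2* was not called for running, and without running it lay above the WT control level. FLExDUX4 running mice had 7.97, 14.5, 11.1 and 2.71 CPM, against 4.12, 7.48 and 10.03 CPM in FLExDUX4 control mice, and these groups overlapped. The running effect there was 0.27 ± 0.45 on the log2 scale (adjusted p = 0.965, edgeR). The difference between the 2 running effects, FLExDUX4 minus WT, was -2.02 ± 0.70, with a 95% interval of -3.39 to -0.64, an unadjusted p of 0.00673 and an adjusted p of 0.954 in edgeR, so it did not pass. Between the control groups, *Dach2* was 4.51-fold higher in FLExDUX4 than in WT mice, again with no overlap (log2 2.17 ± 0.56, adjusted p = 0.730, edgeR), and it ranked 6th of all tested genes by p although no gene passed. Both comparisons share the same 3 low WT control mice.

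Markers of endothelium differed between the same WT groups. All 8 had counts, and they summed to 159 to 260 CPM in WT running mice, against 95.7 to 107 CPM in WT control mice, without overlap. All 7 tested markers had running effects above 0 in WT mice, and *Kdr*, a receptor of vascular growth factor, was called (log2 1.21 ± 0.26, adjusted p = 0.0411, edgeR). Smooth muscle and pericyte markers (224 to 281 CPM in WT running mice, against 158 to 191 CPM in WT control mice) and Schwann cell markers (46.7 to 70.1 CPM, against 30.9 to 38.8 CPM) also did not overlap. All 6 genes of each list had counts, though *Cnn1* had 0 in WT control mice. *Rgs5* of the pericyte list was called (log2 0.68 ± 0.16, adjusted p = 0.0433, edgeR), and no Schwann cell gene was. Between the control groups, endothelial markers were also apart, with 125 to 147 CPM in FLExDUX4 mice against 95.7 to 107 CPM in WT mice. Smooth muscle and pericyte markers (196 to 225 against 158 to 191 CPM) did not overlap there either. The same held for tendon markers (95.5 to 194 against 41.5 to 82.9 CPM), while Schwann cell markers and the remaining marker lists overlapped. The part of these markers in either *Dach2* difference was not tested.

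*Eya1* (ENSMUSG00000025932, chr1:14168954-14310235, minus strand), the coactivator of the same pathway, showed no such pattern. It averaged 19.6 ± 4.68 CPM in FLExDUX4 running mice, 23.4 ± 3.31 in WT running, 21.6 ± 7.43 in FLExDUX4 control and 21.3 ± 5.60 in WT control mice (SD, n = 4, 4, 3 and 3), and all groups overlapped. Its running effect was 0.15 ± 0.25 in WT mice on the log2 scale, with a 95% interval of -0.35 to 0.64, and -0.12 ± 0.25 in FLExDUX4 mice. *Dach1*, the paralogue of *Dach2*, differed by -0.01 ± 0.52 with running in WT mice. Myogenin (*Myog*), which DACH2 is known to restrain, had 28 counts in the 4 WT running mice and 11 in the 3 WT control mice, and its running effect was 0.50 ± 1.09. *Chrna1*, the acetylcholine receptor alpha subunit, differed by 0.35 ± 0.38. None of the 11 tested genes of a list of myogenic factors, acetylcholine receptor subunits and other denervation-responsive or synaptic genes (*Musk*, *Gadd45a*, *Runx1* and *Ncam1*) was called in any comparison.

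*Vgll2* (ENSMUSG00000049641, chr10:52022502-52028471, plus strand), the TEAD cofactor, was the regulator whose level followed the myosins most closely. It stood at 86.9, 105, 75.6 and 32.8 CPM in FLExDUX4 running mice and at 121, 75.3, 44.5 and 91.8 CPM in WT running mice. FLExDUX4 control mice had 42.0, 52.6 and 50.3 CPM, and WT control mice had 23.1, 36.1 and 22.3 CPM. The WT control group was lowest on average, the FLExDUX4 control mice lay above it without overlap, and the runners of both genotypes spread from the control level upward. WT runners did not overlap WT control mice, while 1 FLExDUX4 runner lay below all FLExDUX4 control mice. The running effect was 1.61 ± 0.42 on the log2 scale in WT mice, a 3.04-fold difference (95% interval 1.72 to 5.38), and missed the threshold (adjusted p = 0.142, edgeR).

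That miss depended on the test and on single mice. DESeq2 on the same counts called *Vgll2* in WT mice (adjusted p = 0.00845). So did edgeR without FLExDUX4 running 4, the runner with the lowest myosin ratio (adjusted p = 0.00728), and without WT running 3 (adjusted p = 0.0329). In the authors' deposited table, which gives WT control over WT running, the *Vgll2* log2 fold change was -1.21 with an adjusted p of 0.000288. DESeq2 on the same counts gave a larger size, 1.61 for WT running over WT control. The deposited size is therefore not compared with the fits reported here. The effect was 0.63 ± 0.40 in FLExDUX4 mice (adjusted p = 0.841, edgeR), and the difference between the genotypes' running effects was -0.98 ± 0.57 (adjusted p = 0.962). Control FLExDUX4 mice had 1.77-fold the *Vgll2* level of control WT mice (95% interval 0.976 to 3.22, adjusted p = 0.972). With the myosin ratio in the model, the *Vgll2* running effect in WT mice was -0.12 on the log2 scale. The genotype difference between control mice was then -0.095, and neither was called. The ratio itself differs between these groups, so its shift cannot be told apart from running or genotype there. The TEAD factors and their other cofactors gave no call in any comparison, with 7 of 9 tested, and their median running effect in WT mice was 0.14.

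**Figure D1:**
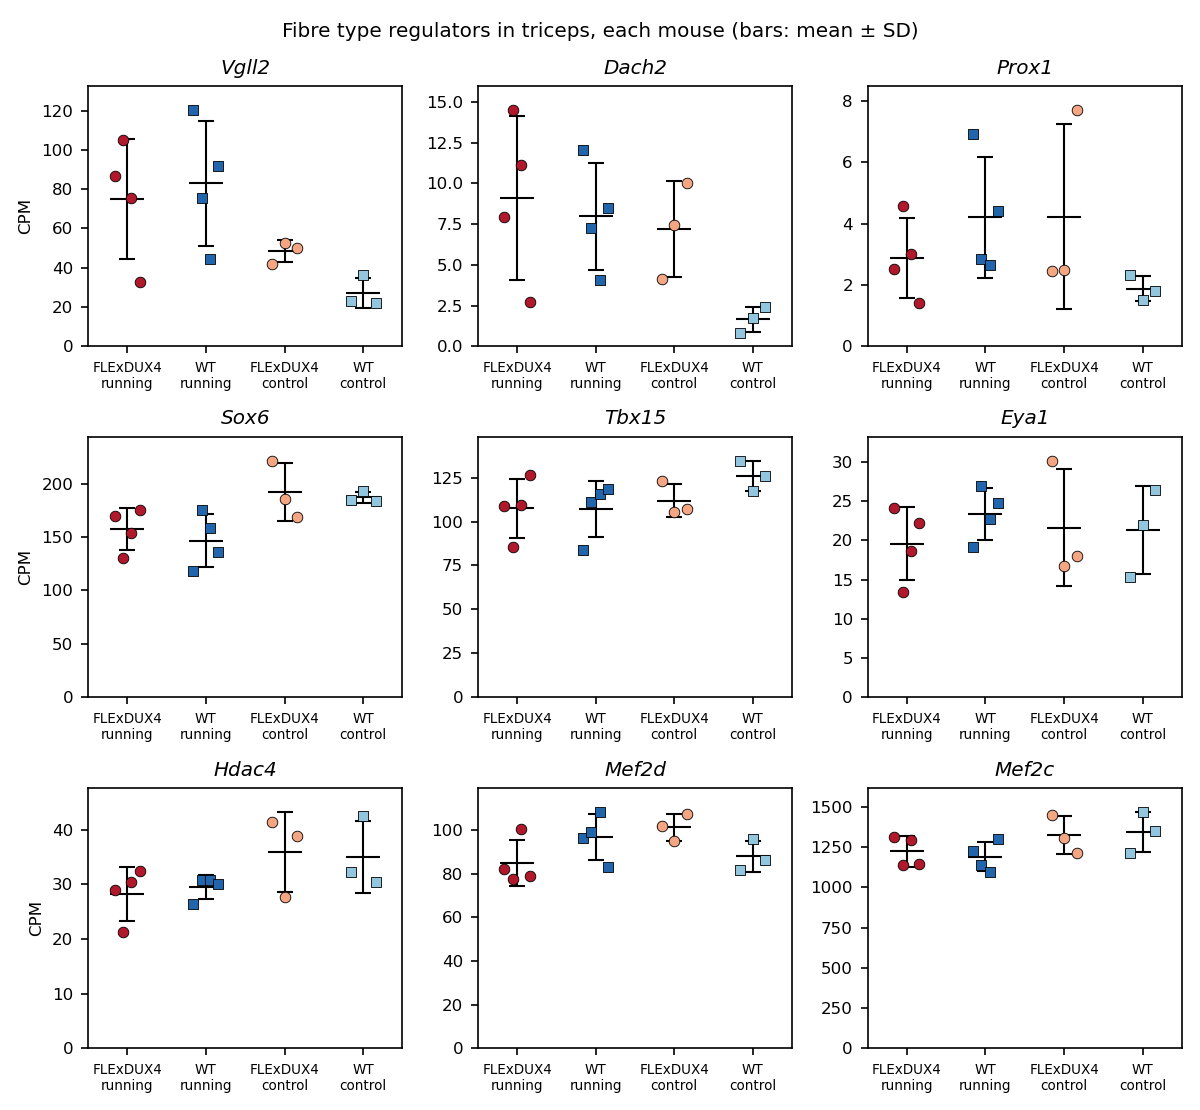
Level of each regulator in CPM on a linear axis from 0, with 1 point per mouse, in FLExDUX4 running, WT running, FLExDUX4 control and WT control triceps; the horizontal line is the group mean and the bars are ± SD. The 3 WT control mice, at 0.841 to 2.41 CPM, lie below all other mice for *Dach2*, and *Vgll2* spreads from 32.8 to 121 CPM among the runners, while *Mef2c*, *Mef2d* and *Eya1* overlap between groups.

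*Prox1* (ENSMUSG00000010175, chr1:190118035-190170714, minus strand) was rare in these libraries and 1 mouse set its genotype difference. It had 2.53, 4.58, 3.01 and 1.43 CPM in FLExDUX4 running mice and 6.93, 2.84, 2.64 and 4.42 CPM in WT running mice. FLExDUX4 control mice had 2.47, 2.49 and 7.72 CPM, and WT control mice had 2.31, 1.51 and 1.81 CPM. WT runners lay above WT control mice without overlap, but the running effect of 1.15 ± 0.61 was not called (adjusted p = 0.525, edgeR). The difference between FLExDUX4 control and WT control mice was 1.20 ± 0.64 (adjusted p = 0.972), and it was 0.40 ± 0.75 without FLExDUX4 control 3, the mouse with 60 *Prox1* counts. PROX1 also marks lymphatic endothelium, whose 6 other markers summed to 15.96 to 22.6 CPM in FLExDUX4 running, 12.3 to 28.2 in WT running, 13.9 to 31 in FLExDUX4 control and 7.13 to 14.5 in WT control mice. *Ccl21a*, one of them, had 4 counts in all mice together, and the 6 markers had 108 counts in FLExDUX4 control 3, against 113 and 82 in the other FLExDUX4 control mice. The part of lymphatic vessels in the *Prox1* values was not tested.

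*Sox6*, a repressor of slow fibre genes, and *Tbx15*, which is needed for glycolytic fibres, had slightly lower mean levels in runners of both genotypes, and neither was called by edgeR. *Sox6* (ENSMUSG00000051910, chr7:115470872-116038796, minus strand) had 169.5, 131, 154 and 175 CPM in FLExDUX4 running mice and 118, 175, 158 and 136 CPM in WT running mice, against 221, 186 and 169 CPM in FLExDUX4 control mice and 185, 193 and 183 CPM in WT control mice. WT runners lay below WT control mice without overlap, whereas the FLExDUX4 groups overlapped. The fold change was small, -0.35 ± 0.15 on the log2 scale in WT mice (adjusted p = 0.367) and -0.28 ± 0.15 in FLExDUX4 mice (adjusted p = 0.786). Averaged over genotype it was -0.32 ± 0.11 (adjusted p = 0.140 in edgeR, 0.0484 in DESeq2). With library sizes taken from the added spike-in RNAs, the WT value was -0.01, where the median of all tested genes was 0.37.

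*Tbx15* (ENSMUSG00000027868, chr3:99240381-99354259, plus strand) averaged 108 ± 16.8 CPM in FLExDUX4 running mice, 107 ± 15.8 in WT running, 112 ± 9.59 in FLExDUX4 control and 126 ± 8.55 in WT control mice (SD, n = 4, 4, 3 and 3). The lowest values, 85.6 and 83.9 CPM, belonged to FLExDUX4 running 2 and WT running 1, the 2 mice with the highest myosin ratios. WT running 4, with the next highest ratio (-1.65), had 118 CPM, the highest *Tbx15* of the WT runners. Its running effect was -0.23 ± 0.15 in WT mice (adjusted p = 0.655) and 0.12 with spike-in library sizes, again beside a median of 0.37 over all tested genes. Among 16 tested genes of other fibre type regulators, none was called for running or genotype, with a median running effect of -0.27 in WT mice.

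The MEF2 factors and HDAC4 stayed within the spread between mice. *Mef2c* (ENSMUSG00000005583, chr13:83504034-83667080, plus strand), which is needed for slow fibres in mice, averaged 1223 ± 94.3 CPM in FLExDUX4 running, 1191 ± 89.4 in WT running, 1324 ± 119 in FLExDUX4 control and 1343 ± 126 in WT control mice (SD, n = 4, 4, 3 and 3). Its running effects had narrow intervals, -0.44 to 0.09 on the log2 scale in WT mice and -0.38 to 0.15 in FLExDUX4 mice. *Mef2d* (ENSMUSG00000001419, chr3:88142372-88172086, plus strand) averaged 84.8 ± 10.5 CPM in FLExDUX4 running, 96.8 ± 10.4 in WT running, 101 ± 6.28 in FLExDUX4 control and 87.9 ± 7.17 in WT control mice. Its running effect was 0.14 ± 0.15 in WT and -0.26 ± 0.15 in FLExDUX4 mice, and the difference of -0.40 ± 0.21 was not called (adjusted p = 0.954). The 3′ end of *Mef2d* lies under an antisense gene with 22 counts in all mice together. An antisense gene with 359 counts also overlaps *Sox6*, but not its 3′ end. The strand setting of the counting is not given in the sources used here. Same-strand genes overlap *Hdac4* (153 counts) and *Eya1* (68 counts), also away from the 3′ ends.

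*Hdac4* (ENSMUSG00000026313, chr1:91928779-92195699, minus strand) averaged 28.3 ± 4.90 CPM in FLExDUX4 running, 29.5 ± 2.14 in WT running, 36.0 ± 7.31 in FLExDUX4 control and 35.04 ± 6.57 in WT control mice (SD, n = 4, 4, 3 and 3). Group means were lower in runners, by -0.30 ± 0.14 on the log2 scale averaged over genotype, but the groups overlapped and the adjusted p was 0.390. With spike-in library sizes the averaged value was -0.09. Of the other MEF2 factors, class II deacetylases and their kinases, 11 of 12 were tested and only *Camk2a* was called. This gene of a calcium-dependent kinase that phosphorylates HDAC4 fell by 0.48 ± 0.11 on the log2 scale with running averaged over genotype (adjusted p = 0.0289, edgeR).

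Counted over the list, groups without overlap were found in the 2 comparisons that use the WT control mice. In WT mice, running groups did not overlap control groups for 4 of 9 regulators, 3 of them higher and 1 lower, against 10.3% of all tested genes (5.74% higher and 4.56% lower). In FLExDUX4 mice no regulator was called, none had separate groups (7.17% of all genes did), and none had an unadjusted p under 0.05; 0.00% of all genes were called by edgeR, with 738 genes at an unadjusted p under 0.05, and DESeq2 called 1 gene and no regulator. For FLExDUX4 against WT control mice, 3 of 9 had separate groups, all higher in FLExDUX4, against 11.4% of all genes (5.93% higher). There 0.00% of genes were called by edgeR and 2 genes by DESeq2, with 554 genes and 1 regulator, *Dach2*, at an unadjusted p under 0.05. These 2 comparisons share the WT control mice, so the values for *Dach2*, *Vgll2* and *Prox1* in them are not independent. For FLExDUX4 against WT running mice no regulator had separate groups (2.51% of all genes did). There 0.00% of genes were called by edgeR and 0 by DESeq2, with 350 genes and 0 regulators at an unadjusted p under 0.05, and the log2 fold changes of the regulators lay between -0.57 and 0.16. Averaged over genotype, running gave no call among the 9 regulators in edgeR and 2 in DESeq2, *Vgll2* and *Sox6*, where edgeR called 0.857% of all genes. The test of unequal running effects called 0.00% of genes in edgeR and 1 gene in DESeq2, with 537 genes and 2 regulators, *Dach2* and *Prox1*, at an unadjusted p under 0.05. The genotype effect averaged over running likewise called 0.00% in edgeR and 0 genes in DESeq2, with 418 genes and 1 regulator, *Dach2* (2.24-fold higher in FLExDUX4, 95% interval 1.39 to 3.61), at an unadjusted p under 0.05.

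**Figure D2:**
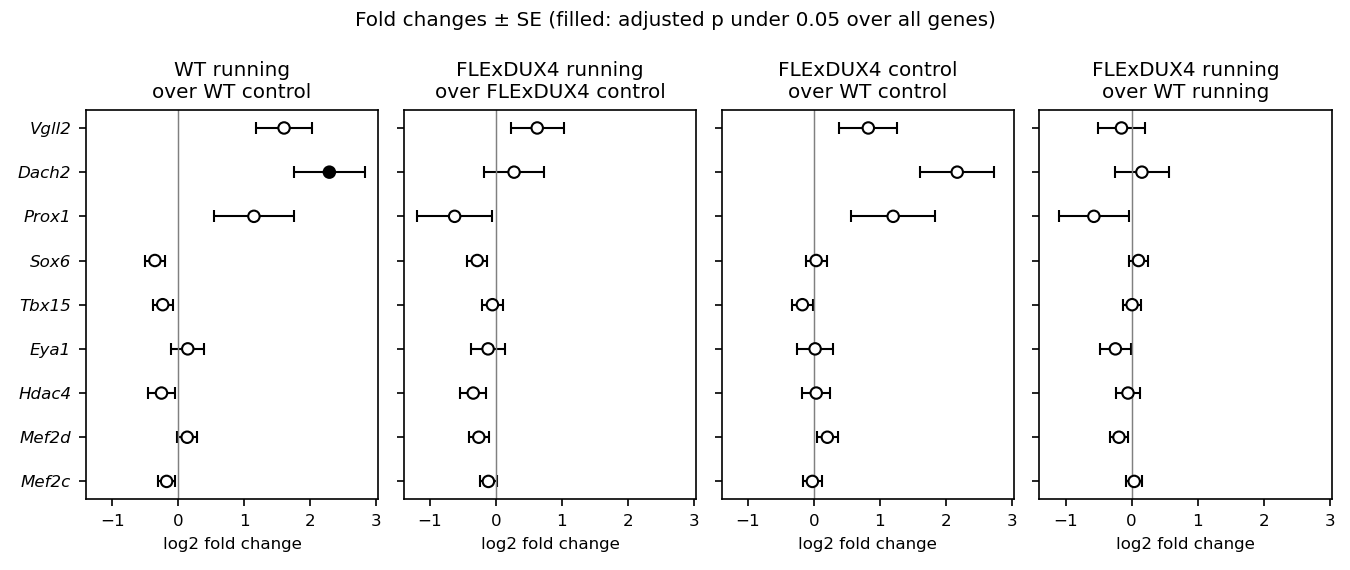
Log2 fold change ± SE of each regulator in 4 comparisons, running over control within each genotype and FLExDUX4 over WT within each condition. The filled point, *Dach2* in WT running over WT control at 2.29 ± 0.54, is the only one with an adjusted p under 0.05; *Vgll2*, *Dach2* and *Prox1* lie highest in both comparisons that use WT control mice.

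Because the runners differed in their myosins, each gene was also fitted against the myosin ratio of the same library with the group means held, so that the slope comes from differences between mice of 1 group. The ratio is counted in the same libraries as the regulators. *Vgll2* gained 0.45 ± 0.067 log2 units per log2 unit of the ratio (adjusted p = 2.21e-05, edgeR) and ranked 23rd of all tested genes by p. It was the only 1 of 9 regulators called, where 2.12% of all genes were called and 1.32% as rising. The runners show the relation directly. FLExDUX4 running 4 and WT running 3, with the lowest ratios among the runners (-4.79 and -4.23), had the lowest *Vgll2* of the runners, 32.8 and 44.5 CPM. FLExDUX4 running 2 and WT running 1, both with a ratio of -1.29, had the highest, 105 and 121 CPM.

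The *Vgll2* slope held in every fit that left out 1 mouse, between 0.38 and 0.47, with the largest adjusted p, 0.0128, without FLExDUX4 running 4. It was 0.47 ± 0.059 in the 8 running mice alone (adjusted p = 4.42e-06), but -0.10 ± 0.40 in the 6 control mice, whose ratios spanned little within a group (adjusted p = 0.995). The fits on running mice alone and on control mice alone were added after seeing the data. Markers of vessels and tendon moved with the ratio as well. Of 7 tested endothelial markers 6 had a slope above 0, and *Pecam1* was called (0.30 ± 0.076, adjusted p = 0.0196). The 8 markers summed to 103 to 203 CPM in FLExDUX4 running, 159 to 260 in WT running, 125 to 147 in FLExDUX4 control and 95.7 to 107 in WT control mice. All 5 tested tendon markers had a slope above 0, with a median of 0.42 and none called. The 7 tendon markers (*Mkx* had 0 counts in FLExDUX4 control mice) summed to 73.0 to 173 CPM in FLExDUX4 running, 52.99 to 142 in WT running, 95.5 to 194 in FLExDUX4 control and 41.5 to 82.9 in WT control mice. The *Vgll2* slope was 0.50 ± 0.10 with the endothelial marker level in the model (adjusted p = 0.0148), 0.56 ± 0.12 with the tendon marker level in it (adjusted p = 0.0208) and 0.42 ± 0.081 with the share of mitochondrial counts in it (adjusted p = 0.00160).

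*Dach2* had a slope of 0.55 ± 0.16, just short of the threshold (adjusted p = 0.0508, edgeR). In the 8 runners alone, a fit added after seeing the data, it was 0.56 ± 0.14 and was called (adjusted p = 0.0202, edgeR). In the 6 control mice it was 0.09 ± 1.17 (adjusted p = 0.998). With the endothelial level in the model it was 0.62 ± 0.24 (adjusted p = 0.575), with the tendon level 0.76 ± 0.31 (adjusted p = 0.526) and with the mitochondrial share 0.59 ± 0.20 (adjusted p = 0.139), none of them called. With the myosin ratio in the model, the effect of running on *Dach2* in WT mice was 0.18 ± 0.71 (adjusted p = 0.997); the ratio itself differs between these groups, so running and the myosin shift cannot be told apart there. *Prox1* had a slope of 0.44 ± 0.21 (adjusted p = 0.435). The slopes of *Sox6* (-0.13 ± 0.048, adjusted p = 0.220) and *Tbx15* (-0.12 ± 0.050, adjusted p = 0.324) were negative and were not called, and those of *Eya1* and *Hdac4* were -0.14 ± 0.093 and -0.13 ± 0.072. *Mef2d* and *Mef2c* had slopes of -0.05 ± 0.052 and 0.03 ± 0.040. Taking the level of slow fibre genes in place of the myosin ratio gave *Vgll2* a slope of 0.31 ± 0.056 (adjusted p = 0.00223).

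**Figure D3:**
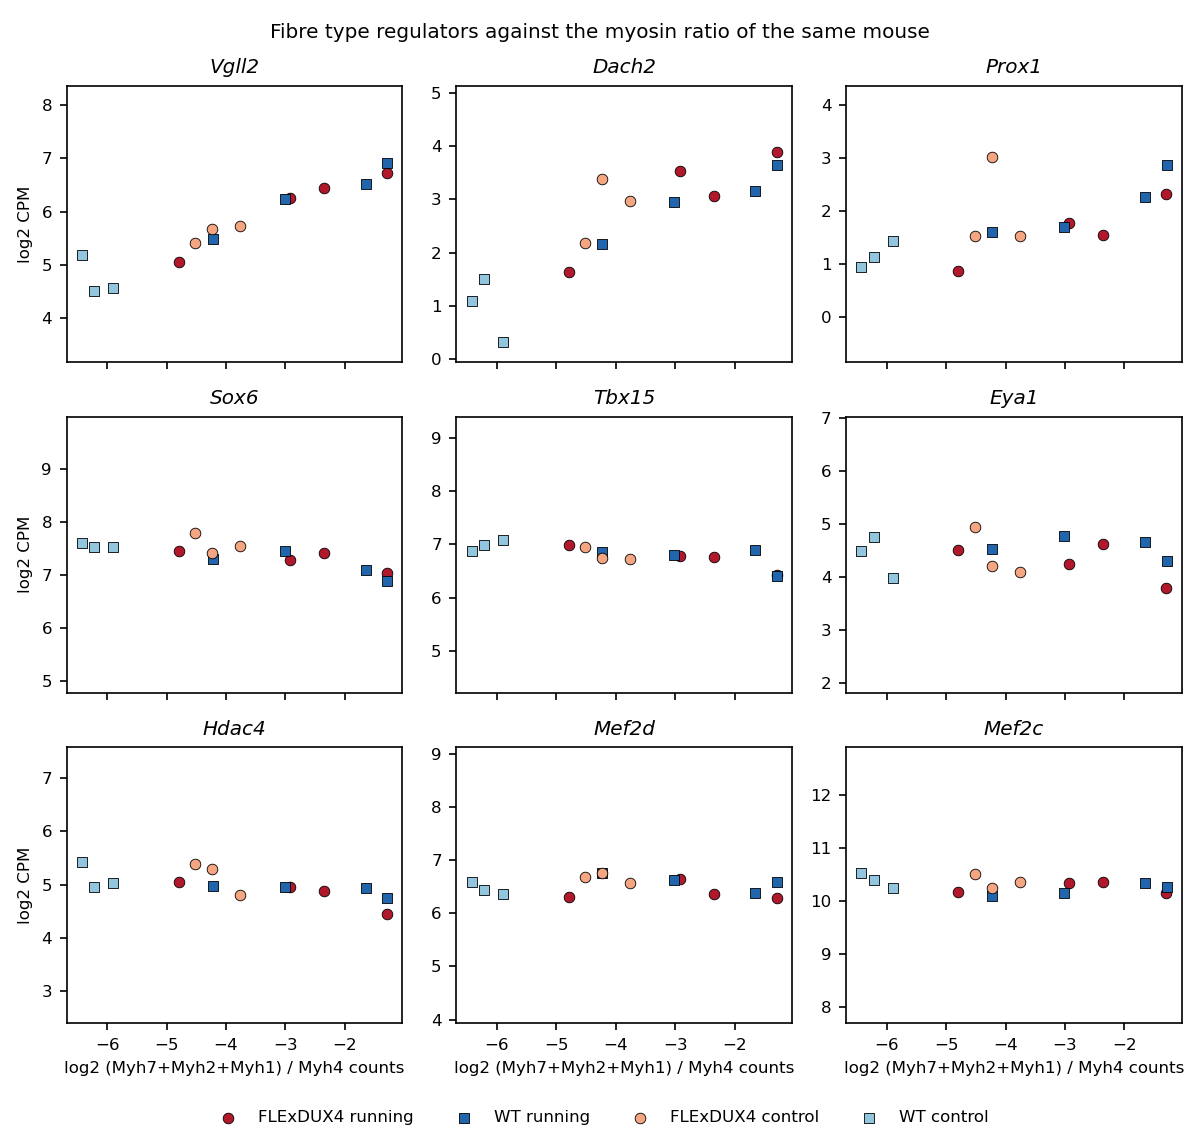
Level of each regulator (log2 CPM, each panel spanning the same range) against the log2 myosin ratio of the same mouse, with 1 point per mouse and colours for the 4 groups. *Vgll2* climbs with the ratio in both running groups, from -4.79 to -1.29 in FLExDUX4 runners and from -4.23 to -1.29 in WT runners. *Dach2* and *Prox1* scatter more around the same direction, and *Mef2c* and *Mef2d* stay level.

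The contractile genes give the scale of these slopes. Leaving out the myosins that make up the ratio, 5 of 11 slow fibre genes were called as rising with it, *Myoz2*, *Ankrd2*, *Casq2*, *Tpm3* and *Myl2*, with slopes from 0.60 ± 0.10 for *Casq2*, a calcium store protein, to 1.58 ± 0.28 for *Myl2*, the slow regulatory light chain. All 11 had slopes above 0, with a median of 1.09. Of 11 fast fibre genes 7 were called as falling and none had a slope above 0, with a median of -0.20; over all tested genes the median was 0.00. The *Vgll2* slope thus lay below those of the called slow fibre genes. Of the regulators outside the list, *Maf*, a large Maf factor known to favour type 2B fibres in mice, fell by 0.24 ± 0.045 per unit of the ratio (adjusted p = 0.000724) and *Camk2a* by 0.20 ± 0.043 (adjusted p = 0.00415). No other TEAD factor or cofactor was called.

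**Figure D4:**
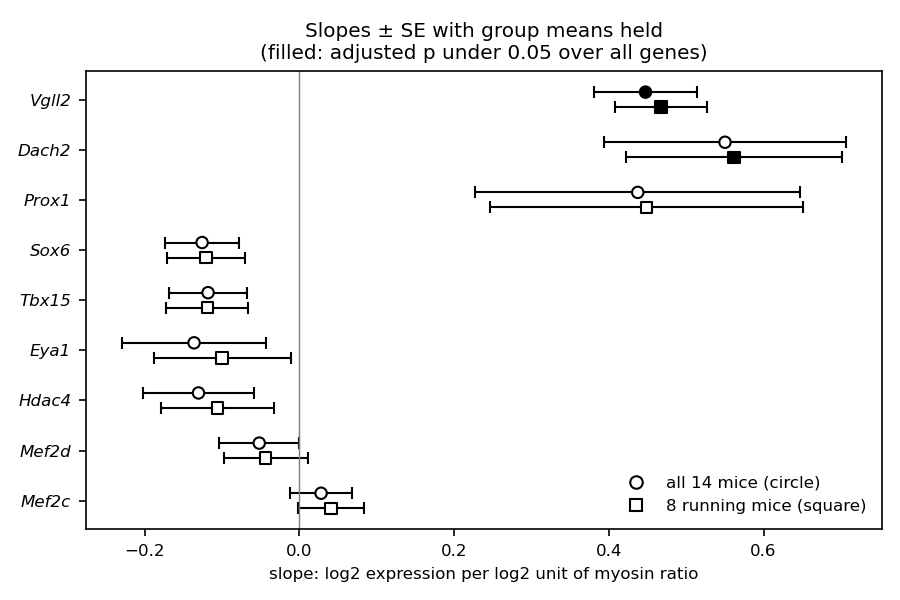
Slope of each regulator on the myosin ratio with group means held, ± SE, for all 14 mice (circles) and for the 8 running mice (squares); filled symbols have an adjusted p under 0.05. *Vgll2* is called in both, *Dach2* in the 8 runners at 0.56 ± 0.14, and the slopes of *Sox6*, *Tbx15*, *Eya1* and *Hdac4* lie below 0 in both. The fit of the 8 running mice was added after seeing the data.

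*Dach2* was set against all tested genes for likeness, as Pearson's r of deviations from group means over the 14 mice. The 3 most alike were *Bdh1* (r = 0.930), a ketone body enzyme, *Pecam1* (r = 0.919), an adhesion protein of endothelium, and *Mcrip2* (r = 0.916). These r values share the libraries and their depth and carry no p. They were the highest of 11088 tested genes after genes with Gm-number or Rik symbols and transcripts of the mitochondrial genome were left out. Nuclear genes of mitochondrial proteins stayed in.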

How the data were processed

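Triceps RNA of 14 mice was made into QuantSeq forward libraries of transcript 3′ ends and sequenced at Lexogen, per the labels' protocols. The submitters' processing notes name cutadapt 1.16, STAR 2.5.3a, featureCounts 1.6.2 and builds GRCh38 and GRCm38; how strand and multi-mapping reads were treated is not given in the sources used here. The authors deposited raw counts per gene and mouse, unnormalized, and from these counts all tests were made. The authors also deposited log2 fold changes and adjusted p-values of group comparisons, and DESeq2 is named in the submitters' processing notes; these log2 values are printed only where named as the authors' deposited table.

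Counts were tested with edgeR 4.0.16 (R 4.3.3; TMM scaling, filterByExpr with a minimum count of 10, robust quasi-likelihood fit, 1 mean per group) on the 11088 genes left of 52550. All 9 regulators passed that filter. P-values were adjusted by the Benjamini-Hochberg method over all tested genes and called under 0.05. CPM uses TMM-scaled library sizes. The slope fit adds the myosin ratio as 1 covariate. DESeq2 1.42.0 was an alternative test, and spike-in library sizes, no filter, RLE factors, leaving out mice and other covariates were further alternatives. Intervals at 95% are the estimate ± 1.96 SE. This normal approximation can be narrower than edgeR's test allows with so few mice. The fits were also run on simulated counts with known changes, and that outcome is not used as support here. The authors' table pairs IDs with symbols, and positions come from GENCODE on GRCm38.

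The regulators, the companion gene lists and the marker lists were chosen with earlier results of these data known. Named genes outside the regulators were those called in a comparison, at most 4 per companion list by smallest p with the contractile genes and markers named as called, and the 3 most like *Dach2*. Mice of a group are numbered in accession order, so the numbers do not pair mice. The labels give separate mice but no litter number, day or batch that would pair them.

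The marker lists were lymphatic endothelium, endothelium, smooth muscle and pericyte, fibroblast, tendon, satellite cell, macrophage, lymphocyte, adipocyte and Schwann cell genes. Among them *Kdr* (1.21 ± 0.26) and *Rgs5* (0.68 ± 0.16) were called for running in WT mice, *Kdr* (0.90 ± 0.18) and *Rgs5* (0.46 ± 0.11) for running averaged over genotype, and *Pecam1* for the slope, in edgeR's log2 units. No lymphocyte marker was called, and *Cd3g* had no counts. Some genes of the lists are not reported here.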

Additional observations from a re-analysis of the deposited data

Results flagged for a closer look

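*Hdac4* stood at 26.3 CPM in WT running 1, while the other WT running mice lay close together at 30.1, 30.7 and 30.9 CPM, so this mouse was far from the rest of its group of 4. It was 1 of 18 groups of 4 mice examined across the 9 regulators, and chance flags about 1 group in 20. The mouse rests on 133 *Hdac4* counts and has the highest myosin ratio of the WT runners, -1.29. WT running 4, with the next highest ratio of the WT runners (-1.65), had 30.1 CPM.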

How the results depend on the processing

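No paired analysis was possible because replicate numbers only name the mice, in accession order. The number of regulators called with running in WT mice was 1 in the reported fit. It was 2 with DESeq2 and 2 with spike-in library sizes, 0 without FLExDUX4 control 1 and WT running 2 together, 0 with the myosin ratio in the model, and 0 to 2 when 1 mouse was left out. For running averaged over genotype it was 0, but 1 with no filter on low counts, 2 with DESeq2, 2 with spike-in library sizes and 0 to 2 when 1 mouse was left out; the 2 genes called without FLExDUX4 running 4 or without WT running 3 were *Vgll2* and *Dach2*. For FLExDUX4 against WT control mice it was 0, but 1 with no filter on low counts, which was *Dach2* (adjusted p = 0.0438, edgeR). For the slope it was 1, but 2 with spike-in library sizes, 1 to 2 when 1 mouse was left out, and, in fits added after seeing the data, 2 in the 8 running mice and 0 in the 6 control mice, where the *Vgll2* slope was -0.10. The causes were not tested. The counts for the other 4 comparisons were 0 in every fit run.

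Counts over all genes moved more. Running in WT mice called 55 genes, against 202 with DESeq2, 217 with no filter, 604 with spike-in library sizes, 0 with the myosin ratio in the model and 0 to 197 when 1 mouse was left out (0 without WT control 1, 197 without WT running 3). Averaged over genotype the numbers were 95, against 278, 291, 430, 2 and 17 (without FLExDUX4 control 1) to 286 (without FLExDUX4 running 4), and 24 without the 2 mice named above. The slope called 235 genes, against 120 on the slow fibre gene level, 37 with the endothelial and 30 with the tendon marker level added (both chosen after seeing the data), 3 in the control mice and 97 to 256 when 1 mouse was left out (97 without FLExDUX4 running 4). Comparisons with no call gave at most 24 genes under any alternative. Spike-in library sizes shifted the median of all genes by 0.37 for running in WT, 0.31 for genotype in controls, 0.21 for running averaged, 0.14 for genotype averaged and -0.32 for the interaction, and turned the split of calls from 44 higher and 11 lower to 602 and 2 for running in WT, and from 61 and 34 to 419 and 11 averaged over genotype. Relative to that shift, *Sox6*, *Tbx15* and *Hdac4* kept lower values in WT runners than the median gene.

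With 3 or 4 mice a group and a common coefficient of variation of 0.288, differences as small as those of *Sox6* and *Hdac4* were not called by edgeR, and DESeq2 called *Sox6* for running averaged over genotype (adjusted p = 0.0484). *Prox1* and *Dach2* rest on few counts, from 4 to 78 per mouse. Each p-value sets a difference against a spread estimated from all mice in the fit, those of other groups included, and covers these mice only.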
